A study of Arabidopsis thaliana with 8 samples.

Results

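Transcripts of 10 Arabidopsis thaliana immune genes were followed in root RNA-seq libraries. They were picked by locus out of the 33602 loci counted. The cell-surface side is represented by the pattern receptors FLS2 (AT5G46330), EFR (AT5G20480) and CERK1 (AT3G21630), the co-receptor BAK1 (AT4G33430) and the cytoplasmic kinase BIK1 (AT2G39660). The intracellular receptors are RPS2 (AT4G26090), RPM1 (AT3G07040) and RPS4 (AT5G45250). EDS1 (AT3G48090) and PAD4 (AT3G52430) are lipase-like proteins that pass on the signal of TIR-type receptors.

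The libraries came from primary roots of wild-type Col-0 seedlings on sucrose-free MS plates kept at 21 °C. All samples had a stratification at 4 °C. In the dark groups, plates were foil-wrapped and whole seedlings saw no light. In the lit-shoot groups a D-Root device shaded the root, and the shoot had 16 h light (130 µmol) and 8 h dark each day. Collection was at 4 or 7 days, which gave the groups dark at 4 days, lit shoots at 4 days, dark at 7 days and lit shoots at 7 days, each with 2 independent samples of about 70 seedlings. No pathogen or elicitor was part of the design, so the levels are those of unchallenged seedlings.

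Plants sense microbes at the cell surface and inside the cell. At the surface, FLS2 binds a peptide of bacterial flagellin, EFR binds a peptide of bacterial elongation factor Tu and CERK1 takes part in the response to chitin. BAK1 joins FLS2 and EFR once they bind their ligands, and also serves the brassinosteroid receptor BRI1. BIK1 carries the signal from such complexes to the oxidase RBOHD. Inside the cell, RPS2 and RPM1 watch the plant protein RIN4, which bacterial effectors cut or modify. RPS4 has a TIR domain, works together with RRS1 and depends on EDS1, which forms separate complexes with PAD4 and with SAG101.

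Library totals ran from 25326045 to 30555290 counts, and replicates correlated across genes at 0.98 to 0.987 (log2 CPM; genes are not independent replicates). Levels are CPM, a count relative to the size of its library, with sizes scaled by the trimmed mean of M-values (TMM). All 15 root tissue markers had counts, with a summed level of 263 to 500 CPM per library. Among 15 shoot tissue markers, the stomatal genes MUTE, FAMA and EPF1 had no count in any library. The summed shoot list was 2.21 to 9.97 CPM in the dark and 4-day libraries and 15.6 and 22.5 CPM with lit shoots at 7 days, where the epidermal gene PDF1 gave 12.6 CPM. The root hair genes COBL9 and EXPA7 were at 3.58 and 1.95 CPM in dark roots and at 48.2 and 42.6 CPM with lit shoots at 4 days. At 7 days they were at 0.374 and 0.297 CPM in dark roots and 30.7 and 27.2 CPM with lit shoots. RHD6, another root hair gene of the list, was at 21.6 and 20.6 CPM at 4 days and at 7.16 and 13.1 CPM at 7 days. With the shoot lit, 3 of the 15 root markers were called higher and 4 lower at 4 days, and 6 and 4 at 7 days. Among all genes tested, 30.5% were called higher and 26.6% lower at 4 days, and 36.2% higher and 32.8% lower at 7 days. The phloem gene SUC2 went from 82.6 to 26.6 CPM at 4 days, beside 49.8 and 51.5 CPM at 7 days. The endodermal gene MYB36 went from 67.7 to 37.1 CPM at 4 days and from 64.6 to 19.6 CPM at 7 days. CASP1, another endodermal gene of the list, went the other way, from 139 to 164 CPM (not called) and from 44.9 to 89.9 CPM (called). SCR, also endodermal, went from 46.9 to 42 CPM (not called) and from 40.2 to 29.4 CPM (called). The part of these tissue differences in the results below was not tested. In whole roots, fewer cells of a type and less RNA per cell cannot be told apart.

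The stretches before the annotated gene starts (250 bases, reference genome of RefSeq, TAIR10.1) are shown for 4 genes: BAK1 and RPS2, whose transcripts fell with lit shoots and whose windows each hold the W-box core TTGAC at 2 places, and the partners EDS1 and PAD4, which differed in their values. W-boxes are the sites that WRKY transcription factors bind. RPS4 and PAD4 also fell with lit shoots and have no core in their windows. EFR, CERK1, BIK1 and EDS1, which were not called with light, have 1 each, and RPM1, also not called, has none. A link between the core and the fall was not tested. Capitals mark the W-box core, read on either strand, so that GTCAA is the core on the opposite strand. Each line runs 5′ to 3′ along the gene's own strand and ends at the base before its start.
BAK1: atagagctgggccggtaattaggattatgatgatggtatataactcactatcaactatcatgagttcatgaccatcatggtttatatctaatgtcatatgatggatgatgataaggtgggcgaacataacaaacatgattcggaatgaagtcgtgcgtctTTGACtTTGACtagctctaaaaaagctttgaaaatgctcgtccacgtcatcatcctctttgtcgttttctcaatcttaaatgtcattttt
RPS2: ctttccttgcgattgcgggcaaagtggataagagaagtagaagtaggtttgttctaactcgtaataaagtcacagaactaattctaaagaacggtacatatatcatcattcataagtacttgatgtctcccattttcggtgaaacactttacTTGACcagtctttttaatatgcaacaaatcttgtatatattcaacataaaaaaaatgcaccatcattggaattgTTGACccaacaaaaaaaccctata
EDS1: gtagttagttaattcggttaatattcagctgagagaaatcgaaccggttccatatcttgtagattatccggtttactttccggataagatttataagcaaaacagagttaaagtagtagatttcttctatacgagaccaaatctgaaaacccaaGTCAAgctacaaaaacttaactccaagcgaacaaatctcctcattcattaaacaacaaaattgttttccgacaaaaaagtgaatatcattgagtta
PAD4: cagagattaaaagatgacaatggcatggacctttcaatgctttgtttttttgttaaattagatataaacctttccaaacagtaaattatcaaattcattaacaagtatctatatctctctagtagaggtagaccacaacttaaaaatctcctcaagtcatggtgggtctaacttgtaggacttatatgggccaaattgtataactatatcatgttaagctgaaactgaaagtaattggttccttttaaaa
The windows lie at chr4:16090833-16091082 (minus strand), chr4:13224088-13224337 (plus), chr3:17758148-17758397 (minus) and chr3:19430845-19431094 (plus).

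The core TTGAC, searched on both strands, occurred in 7 of the 10 windows (70%) and in 44.9% of the 27443 windows of the same length before protein-coding genes. BAK1 carried it at -90 to -86 and again at -84 to -80, counted from the gene start, and RPS2 at -98 to -94 and -24 to -20. At least 2 such places occurred in 14.1% of all windows. FLS2, EFR, CERK1, BIK1 and EDS1 each had 1, and RPM1, RPS4 and PAD4 had none. CGCG, the core that calmodulin-binding CAMTA factors recognise, occurred before RPS4 at -96 to -93 and before no other of the 10, against 10.1% of all windows. The G-box CACGTG and the evening element AAAATATCT occurred in none of the 10 windows and in 6.49% and 2.36% of all windows. These letters are matches and were not measured as binding sites. Part of these windows is transcribed from other loci: exons of AT5G03135 and AT3G07050 fill the windows of EFR and RPM1, RRS1 covers 223 bases of the RPS4 window, the non-coding AT4G26095 covers 134 bases of the RPS2 window and AT3G21640 covers 71 bases of the CERK1 window.

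Per kilobase of exon, BAK1 led in every group and FLS2 was last. BAK1 gave 75.1 ± 5.3 CPM per kb (SD, n = 2) in dark roots at 4 days and 50.4 ± 2.4 with lit shoots at 7 days, at percentile 90.9 to 93.7 of the tested genes over the groups. CERK1 came next in each group, at 26.9 to 31.4 CPM per kb. In dark roots at 4 days EDS1, RPS2, PAD4, RPS4 and BIK1 followed within 17.9 to 21.4 CPM per kb, and each overlapped its neighbour in that order. With lit shoots the same genes split: at 4 days BIK1 and EDS1 lay at 21.2 and 20.9, and PAD4, RPS2 and RPS4 at 9.84, 9.7 and 8.09 CPM per kb, with overlap within BIK1 and EDS1 and within PAD4 and RPS2. At 7 days with lit shoots they lay at 25.6 and 20 against 8.26, 7.43 and 7.71, where only RPS2 and RPS4 overlapped. RPM1 and EFR stayed between 0.809 and 2.14 CPM per kb, and FLS2 was at or below 0.0533. Summed per kb, RPS2, RPM1 and RPS4 made up 42.3 and 41.3 in dark roots at 4 days and 20 and 18.1 with lit shoots, and 50.5 and 48.2 against 17.2 and 15.6 at 7 days.

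**Figure D1:**
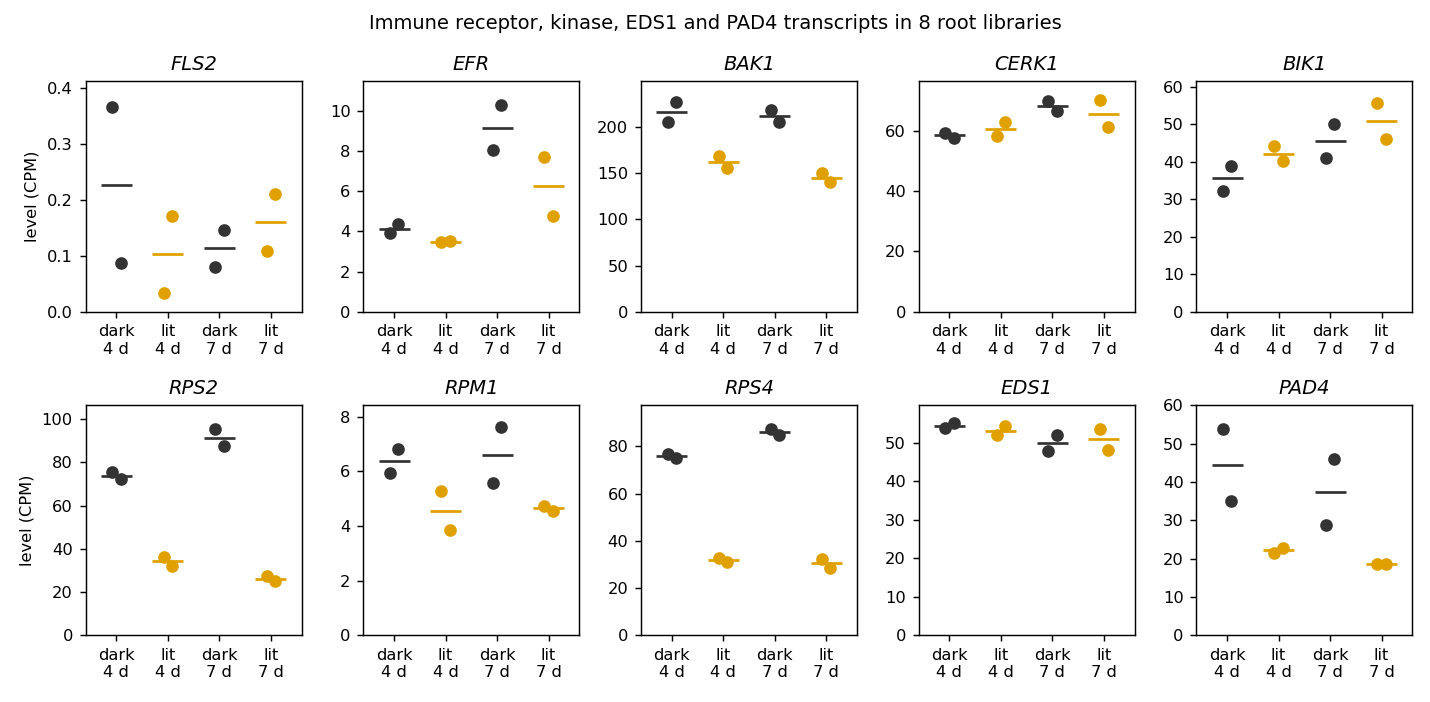
Level of each gene in CPM (linear axis from 0) in the 8 libraries, with dark groups in black and lit-shoot groups in yellow; points are libraries and bars are group means of 2. RPS2 lay at 72.3 to 95.2 CPM in dark libraries and at 25.1 to 36.3 CPM with lit shoots, while EDS1 stayed between 47.9 and 55.1 CPM.

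The first question of the design is how roots differ when the shoot is lit rather than dark. At both ages 4 of the 9 tested genes were lower with lit shoots and none was higher: BAK1, RPS2, RPS4 and PAD4. This is 44.4% of the 9, beside 57.1% of all 20936 tested genes called in either direction at 4 days and 69.0% at 7 days. By direction, 26.6% of all tested genes were lower and 30.5% higher at 4 days, and 32.8% lower and 36.2% higher at 7 days. The count of genes higher was also 0 at an unadjusted p below 0.05 in the edgeR quasi-likelihood test and with DESeq2. The median log2 fold change over the 9 was -0.41 at 4 days and -0.55 at 7 days, beside 0.06 over all tested genes at each age. Libraries of both light groups lay apart for 7 of the 9 genes at 4 days and 6 at 7 days, beside 82.2% and 85.5% of all tested genes. FLS2 did not pass the filter on low counts.

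RPS2, the receptor that responds to loss of RIN4, lies on chromosome 4 at 13224338 to 13227872 as a single exon. Its level was 75.3 and 72.3 CPM in dark roots at 4 days and 36.3 and 32.3 CPM with lit shoots. At 7 days it was 95.2 and 87.5 CPM in dark roots and 27.4 and 25.1 CPM with lit shoots. Every dark library was above every lit one, and the gap was wider at 7 days. RPS2 fell by 1.11 ± 0.11 on the log2 scale (SE) at 4 days (2.15-fold, edgeR adjusted p = 8.4e-05). At 7 days it fell by 1.80 ± 0.11 (3.48-fold, adjusted p = 3.7e-06). The non-coding locus AT4G26095 covers 92.9% of the RPS2 exon on the opposite strand and AT4G26100 covers 12.0%. Without the strand used in counting, their reads cannot be told apart from those of RPS2. AT4G26095 was counted at 7.71 to 9.83 CPM in the group means, with log2 fold changes of -0.08 and 0.01 with lit shoots.

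RPS4, the TIR-type receptor, lies on chromosome 5 at 18321764 to 18326175 on the minus strand, in 5 exons. It was at 76.7 and 75.2 CPM in dark roots and 32.8 and 31.2 CPM with lit shoots at 4 days. At 7 days the dark libraries had 87.5 and 84.8 CPM and the lit ones 32.4 and 28.6 CPM. Dark and lit libraries were far apart at both ages, and replicates lay close together. RPS4 fell by 1.25 ± 0.10 at 4 days (2.37-fold, edgeR adjusted p = 4.5e-05) and by 1.50 ± 0.10 at 7 days (2.83-fold, adjusted p = 5.6e-06), both on the log2 scale. RRS1, which pairs with RPS4, starts 27 bases from it on the other strand. RRS1 fell as well, from 58.8 ± 0.16 to 38.5 ± 0.021 CPM at 4 days (log2 change -0.61 ± 0.09, edgeR adjusted p = 0.00076) and from 66 ± 1.9 to 42.4 ± 2.6 CPM at 7 days (-0.64 ± 0.09, adjusted p = 0.00034). RRS1 was chosen here as the partner after its values were seen.

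RPM1, the other receptor that guards RIN4, was low: 5.94 and 6.8 CPM in dark roots and 5.27 and 3.85 CPM with lit shoots at 4 days. At 7 days it had 5.58 and 7.62 CPM in dark roots and 4.74 and 4.54 CPM with lit shoots. Its lit libraries were below its dark ones at each age, but the difference did not pass the test. The log2 fold change was -0.48 at 4 days (95% interval -1.02 to 0.06, edgeR adjusted p = 0.11) and -0.51 at 7 days (-1.05 to 0.03, adjusted p = 0.083). Without the dark 7-day library of replicate 1 the 7-day value was -0.73 and passed (adjusted p = 0.043), and without replicate 2 it was -0.30 (0.36). The neighbour AT3G07050 overlaps 5.4% of RPM1 on the same strand and had log2 fold changes of 1.15 and 0.90.

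BAK1, the shared co-receptor, lies on chromosome 4 at 16086311 to 16090832. It had 205 and 227 CPM in dark roots and 169 and 156 CPM with lit shoots at 4 days, and 219 and 205 against 150 and 140 CPM at 7 days. All lit libraries were below all dark ones, by less than for RPS2 and RPS4. BAK1 fell by 0.41 ± 0.11 at 4 days (1.33-fold, edgeR adjusted p = 0.01) and by 0.55 ± 0.11 at 7 days (1.46-fold, adjusted p = 0.0016), on the log2 scale. The 4-day call was lost when counts were scaled to library totals alone (adjusted p = 0.094) and without the lit-shoot 4-day library of replicate 2 (adjusted p = 0.089). SERK4, a related co-receptor with 82.6% identity to BAK1 over 49.2% of its exon length, had log2 fold changes of -0.85 and -0.48. AT4G33420 overlaps 2.7% of the BAK1 exon length (78 bases) on the opposite strand. It was counted at 348 and 134 CPM in dark and lit roots at 4 days and at 576 and 185 CPM at 7 days (log2 fold changes -1.37 and -1.64), and without the strand used in counting its reads in the overlap cannot be told apart from those of BAK1.

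CERK1, the chitin receptor kinase, had 59.5 and 57.8 CPM in dark roots and 58.4 and 62.9 CPM with lit shoots at 4 days, and 70 and 66.8 against 70.3 and 61.3 CPM at 7 days. Its dark and lit libraries overlapped at both ages. The log2 fold change was 0.05 at 4 days (95% interval -0.19 to 0.29, edgeR adjusted p = 0.7) and -0.06 at 7 days (-0.29 to 0.18, adjusted p = 0.64). BIK1, the kinase below the receptor complexes, had 32.3 and 38.9 CPM in dark roots and 44.1 and 40.3 CPM with lit shoots at 4 days, and 40.9 and 50 against 55.8 and 46.1 CPM at 7 days. Its log2 fold change was 0.25 at 4 days (-0.10 to 0.59, adjusted p = 0.19) and 0.16 at 7 days (-0.18 to 0.50, adjusted p = 0.35). With library totals alone the 4-day value of BIK1 became 0.44 and passed the test (adjusted p = 0.034).

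EFR, the receptor of elongation factor Tu, had 3.91 and 4.37 CPM in dark roots and 3.47 and 3.5 CPM with lit shoots at 4 days, and 8.05 and 10.3 against 7.69 and 4.79 CPM at 7 days. The lit libraries were below the dark ones at each age without passing the test: -0.25 at 4 days (95% interval -0.86 to 0.36, edgeR adjusted p = 0.45) and -0.57 at 7 days (-1.14 to 0.01, adjusted p = 0.073). The 7-day value passed with no filter on low counts (adjusted p = 0.047) and without the lit-shoot 7-day library of replicate 1 (adjusted p = 0.014). FLS2, the flagellin receptor, had 9 and 2 counts in dark roots and 1 and 5 with lit shoots at 4 days, and 2 and 4 against 3 and 7 counts at 7 days. These are levels of 0.0333 to 0.366 CPM, at which a difference was not detectable: fitted without the filter, the edgeR adjusted p was 0.6 at 4 days and 0.84 at 7 days. AT5G46340 overlaps 4.0% of the FLS2 exon length (172 bases) on the opposite strand. It was counted at 60.5 to 75.3 CPM in the group means. Without the strand used in counting, its reads in the overlap cannot be told apart from those of FLS2.

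EDS1 lies on chromosome 3 at 17755329 to 17758147. It had 53.9 and 55.1 CPM in dark roots and 52.1 and 54.3 CPM with lit shoots at 4 days, and 47.9 and 52.1 against 53.6 and 48.2 CPM at 7 days. The groups overlapped at both ages, within a narrow band. The log2 fold change was -0.03 at 4 days (95% interval -0.26 to 0.20, edgeR adjusted p = 0.79) and 0.02 at 7 days (-0.21 to 0.25, adjusted p = 0.84). With library totals alone the 4-day sign turned, to 0.17. AT3G48080, the locus most like EDS1 (82.6% identity over 85.7% of its exon length; an alpha/beta-hydrolase in the reference), fell from 32.5 ± 0.83 to 10.6 ± 0.34 CPM at 4 days (log2 change -1.61 ± 0.13, edgeR adjusted p = 4.8e-05). At 7 days it fell from 30.9 ± 1.4 to 15.2 ± 2.2 CPM (-1.02 ± 0.13, adjusted p = 0.00014). How reads matching both loci were counted is not given in the sources used here, so the split between them is uncertain.

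PAD4, the partner of EDS1, lies on chromosome 3 at 19431095 to 19434450. It had 53.9 and 35 CPM in dark roots and 21.5 and 22.9 CPM with lit shoots at 4 days. At 7 days the dark libraries had 28.9 and 45.9 CPM and the lit ones 18.7 and 18.6 CPM. Dark libraries spread widely, lit ones hardly at all, and none overlapped. PAD4 fell by 1.00 ± 0.25 at 4 days (2-fold, edgeR adjusted p = 0.01) and by 1.01 ± 0.25 at 7 days (2.01-fold, adjusted p = 0.0076), on the log2 scale, with 95% intervals of -1.58 to -0.42 and -1.59 to -0.42. The call was lost without the lit-shoot library of replicate 1 at 4 days (adjusted p = 0.058) and of replicate 2 at 7 days (adjusted p = 0.053).

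Within libraries, PAD4 per kb relative to EDS1 per kb was 1.13 and 0.72 in dark roots and 0.47 and 0.48 with lit shoots at 4 days. The ratio was 0.68 and 1.00 in dark roots and 0.39 and 0.44 with lit shoots at 7 days. Each dark library thus had a higher ratio than each lit one, by 0.93 on the log2 scale within day 4 (lit minus dark -0.93) and 0.99 within day 7 (-0.99). SAG101, the alternative partner of EDS1, was chosen after its values were seen. SAG101 fell from 27.4 ± 0.17 to 13.8 ± 1.3 CPM at 4 days (log2 change -0.99 ± 0.13, edgeR adjusted p = 0.00031) and from 23.3 ± 1.3 to 9 ± 0.72 CPM at 7 days (-1.37 ± 0.13, adjusted p = 2.8e-05).

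**Figure D2:**
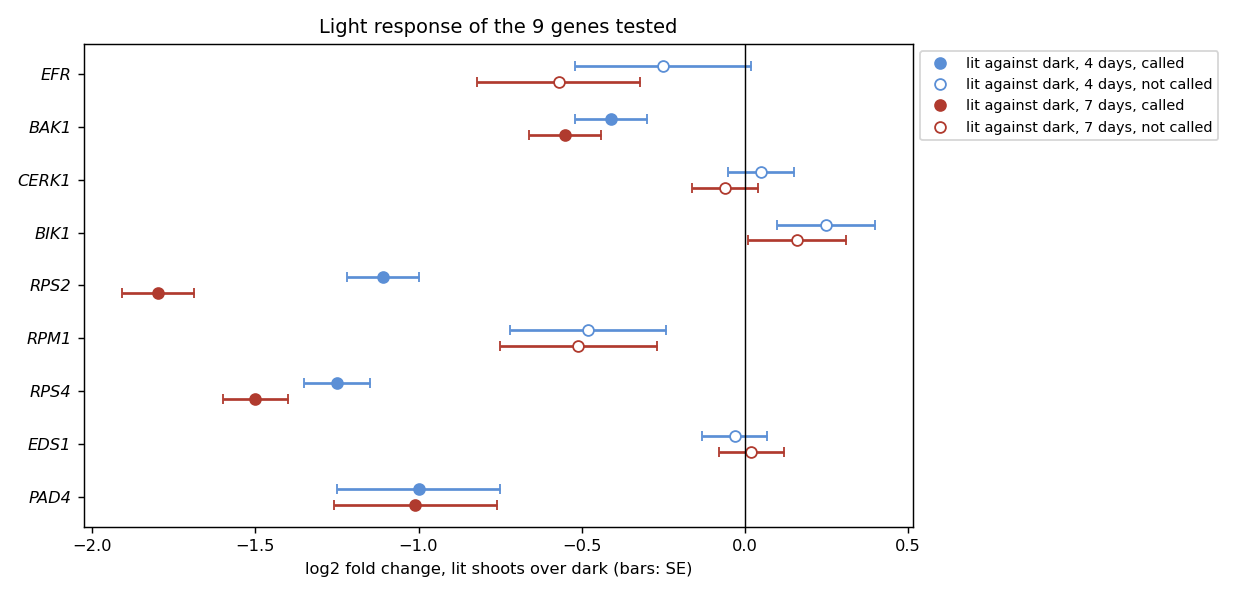
Log2 fold change of lit shoots over dark for the 9 genes tested, at 4 days (blue) and 7 days (red), with bars of 1 standard error; filled points passed the edgeR test at an adjusted p below 0.05. RPS2 at -1.11 and -1.80 and RPS4 at -1.25 and -1.50 lie furthest from 0, and EDS1 and CERK1 lie within 0.06 of it.

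The second question is how these transcripts move between 4 and 7 days. In dark roots 1 of the 9 tested genes, EFR, was higher at 7 days and none was lower, which is 11.1% beside 31.6% of all tested genes called in either direction (13.3% higher and 18.3% lower). EFR rose from 4.14 ± 0.33 to 9.2 ± 1.6 CPM (log2 change 1.15 ± 0.26, edgeR adjusted p = 0.011). The call was lost without the dark library of replicate 1 at 4 days (adjusted p = 0.059) or of replicate 2 at 7 days (adjusted p = 0.066). RPS2 had a log2 fold change of 0.31 over this interval (95% interval 0.07 to 0.55, adjusted p = 0.054), and BIK1 one of 0.35 (0.01 to 0.70, adjusted p = 0.1). At an unadjusted p below 0.05, 3 genes (EFR, RPS2 and BIK1) were above and 0 below their 4-day level.

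With lit shoots, 0 of the 9 genes passed the edgeR test between the ages, beside 4.23% of all tested genes (2.13% higher and 2.10% lower), and DESeq2 also called 0. At an unadjusted p below 0.05, 1 was higher (EFR, 0.83, adjusted p = 0.11) and 1 lower (RPS2, -0.38, adjusted p = 0.082). Libraries of the 2 ages lay apart for 6 of the 9 genes in dark roots and for 5 with lit shoots, beside 69.5% and 55.4% of all tested genes.

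RPS2 was the only gene of the 9 whose light difference itself passed the test between ages, beside 14.6% of all tested genes. Its difference at 7 days minus that at 4 days was -0.69 ± 0.15 on the log2 scale (95% interval -1.03 to -0.35, edgeR adjusted p = 0.02), and 5.57% of all tested genes were called in this direction against 9.03% in the other. The call was lost on leaving out the dark 4-day library of replicate 1 (adjusted p = 0.056) or 2 (0.086), the dark 7-day library of replicate 1 (0.091) or the lit-shoot 4-day library of replicate 1 (0.099). RPS4 had an interaction of -0.25 (95% interval -0.57 to 0.07, adjusted p = 0.25).

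Over the 8 libraries, RPS2 and RPS4 were each other's nearest gene among the 9. Likeness was the root mean square difference of log2 CPM after removing each gene's own mean. It was 0.129 for this pair, place 46 of 20935 genes ordered from RPS2 and place 99 from RPS4. Among 8816 genes with a symbol, MED19A was nearest to RPS2 (0.0572), at group means of 68.8, 32.9, 82.6 and 25.5 CPM in dark and lit roots at 4 days and dark and lit roots at 7 days. PR5K was nearest to RPS4 (0.0526), ARP6 to BAK1 (0.0253), VAM3 to CERK1 (0.0623) and IAA12 to BIK1 (0.0629). RPM1 was nearest to PBL1 (0.111) and EFR to MAN1 (0.165). EDS1 was nearest to BPM3, AGL26 and GLT1 (0.0674, 0.0675 and 0.0681). PAD4 was nearest to EXPA1, BRI1 and CIPK2 (0.184, 0.188 and 0.19), at greater distances than for the other genes. BRI1 stood at 284 and 139 CPM in dark and lit roots at 4 days. The libraries split into dark and lit ones, so any gene with a like light difference comes out near.

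Around the 10 genes, 6 lists of immune genes were read in the same fit, each by how many tested genes were called and by its median log2 fold change. Each count is to be read beside the shares of all tested genes. These were 57.1% called at 4 days (26.6% lower and 30.5% higher) and 69.0% at 7 days (32.8% lower and 36.2% higher). On the cell surface, 15 of 21 tested pattern receptors and co-receptors were lower with lit shoots and 4 higher at 4 days, and 13 were lower and 3 higher at 7 days (medians -0.50 and -0.47, beside 0.06 over all tested genes). Scaling to library totals called 5 higher at 7 days. LYK5, a lysin-motif chitin receptor that works with CERK1, fell from 59.2 ± 18 to 12.5 ± 0.07 CPM at 4 days (log2 change -2.24 ± 0.29, edgeR adjusted p = 0.00047) and from 59.7 ± 6.9 to 8.34 ± 3.2 CPM at 7 days (-2.85 ± 0.30, adjusted p = 8.7e-05). PEPR1, the receptor of endogenous Pep peptides, fell from 252 ± 91 to 58.9 ± 3.3 CPM at 4 days and from 191 ± 19 to 59.4 ± 8 CPM at 7 days. LYM1, a lysin-motif protein that binds peptidoglycan, rose from 7.13 ± 1.1 to 21.2 ± 1.2 CPM at 4 days and from 2.52 ± 0.29 to 16.5 ± 0.7 CPM at 7 days. Its relative LYM3 rose from 2.96 ± 1 to 10 ± 0.16 CPM at 4 days, and SERK1, a co-receptor of the BAK1 family, rose from 7.65 ± 2.1 to 23.4 ± 2.2 CPM at 7 days. IOS1 was the most abundant gene of the list that was not called, at log2 fold changes of -0.18 and 0.17. The first became 0.02 with library totals and was called without the dark library of replicate 1 (-0.38, adjusted p = 0.039), and the second was called with library totals (0.34, adjusted p = 0.032). LYM1 and LYM3 share 80.5% identity, and PEPR1 shares 83.3% with AT1G73066 over 44.0% of its length.

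Signalling components below the receptors were lower for 18 of 25 genes at each age and higher for none (medians -0.58 and -0.87). Among all tested genes 26.6% were lower and 30.5% higher at 4 days, and 32.8% and 36.2% at 7 days. At an unadjusted p below 0.05, 19 of the 25 were lower and 0 higher at each age in edgeR, and DESeq2 called 0 higher. Scaling to library totals called 2 of them higher at 7 days. CPK28, a calcium-dependent kinase that limits BIK1, fell from 166 ± 49 to 42.8 ± 3.5 CPM at 4 days and from 147 ± 9.1 to 36.7 ± 8.4 CPM at 7 days. MPK3, a mitogen-activated protein kinase, fell from 228 ± 22 to 56.2 ± 8.5 CPM at 7 days (log2 change -2.02 ± 0.17, edgeR adjusted p = 1.3e-05). The protein kinase locus AT3G09830 fell from 71.9 ± 15 to 19 ± 0.96 CPM at 4 days. MPK4 was not called at 4 days (-0.19, adjusted p = 0.12), but was called lower with a filter of 1 CPM (0.04), without organelle loci (0.05) and without either dark 7-day library (0.041 and 0.04), and turned to 0.01 with library totals. RBOHD, the oxidase that BIK1 phosphorylates, was called lower at 4 days, from 127 ± 38 to 72.7 ± 1.6 CPM (-0.80, edgeR adjusted p = 0.031). At 7 days RBOHD was not called (-0.42, 95% interval -1.03 to 0.18, adjusted p = 0.18). It was called lower with no filter (0.0069) and without lit-shoot replicate 1 (-0.83, adjusted p = 0.015).

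Genes known to respond to pattern receptors were lower for 9 of 16 and higher for 2 at each age (medians -1.18 and -0.75). Calls in either direction took in 57.1% of all tested genes at 4 days (26.6% lower) and 69.0% at 7 days (32.8% lower). The 2 higher at 4 days became 0 without the dark library of replicate 1 and 1 without any other 4-day library. WRKY40, a transcription factor, fell from 392 ± 120 to 33.3 ± 7.3 CPM at 4 days (11.8-fold, edgeR adjusted p = 0.0025) and from 331 ± 8.4 to 9.95 ± 8.3 CPM at 7 days (33.6-fold, adjusted p = 0.00047). PHI-1 fell from 21.2 ± 16 to 1.78 ± 0.92 CPM at 4 days and from 22.3 ± 4.4 to 0.88 ± 0.095 CPM at 7 days. CYP81F2, an enzyme of indole glucosinolates, went the other way, from 20 ± 9.2 to 90.8 ± 14 CPM at 4 days (log2 change 2.18 ± 0.53, adjusted p = 0.013) and from 31 ± 11 to 185 ± 110 CPM at 7 days (2.57 ± 0.53, adjusted p = 0.0048). Its 4-day call was lost without the dark library of replicate 1 (adjusted p = 0.077) or the lit-shoot library of replicate 2 (0.052). PROPEP2, a precursor of a Pep peptide, rose from 0.442 ± 0.052 to 2.54 ± 1.2 CPM at 7 days, while at 4 days it was at 2.28 and 1.71 CPM (log2 change -0.41, adjusted p = 0.4; interaction 2.92, adjusted p = 0.017). The interaction was lost without dark 7-day replicate 1 (0.05) or either lit-shoot 4-day library (0.073 and 0.066). MYB51 was not called at 4 days (-0.74, adjusted p = 0.26), but was called lower with no filter (2.8e-06), with only the groups compared (0.032) and without either lit-shoot 7-day library (0.016). The 7-day value was not called (-0.45, adjusted p = 0.46), but was called with no filter (0.0055), and leaving out lit-shoot replicate 1 gave -1.56 (0.0014) and replicate 2 gave 0.18 (0.54).

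**Figure D3:**
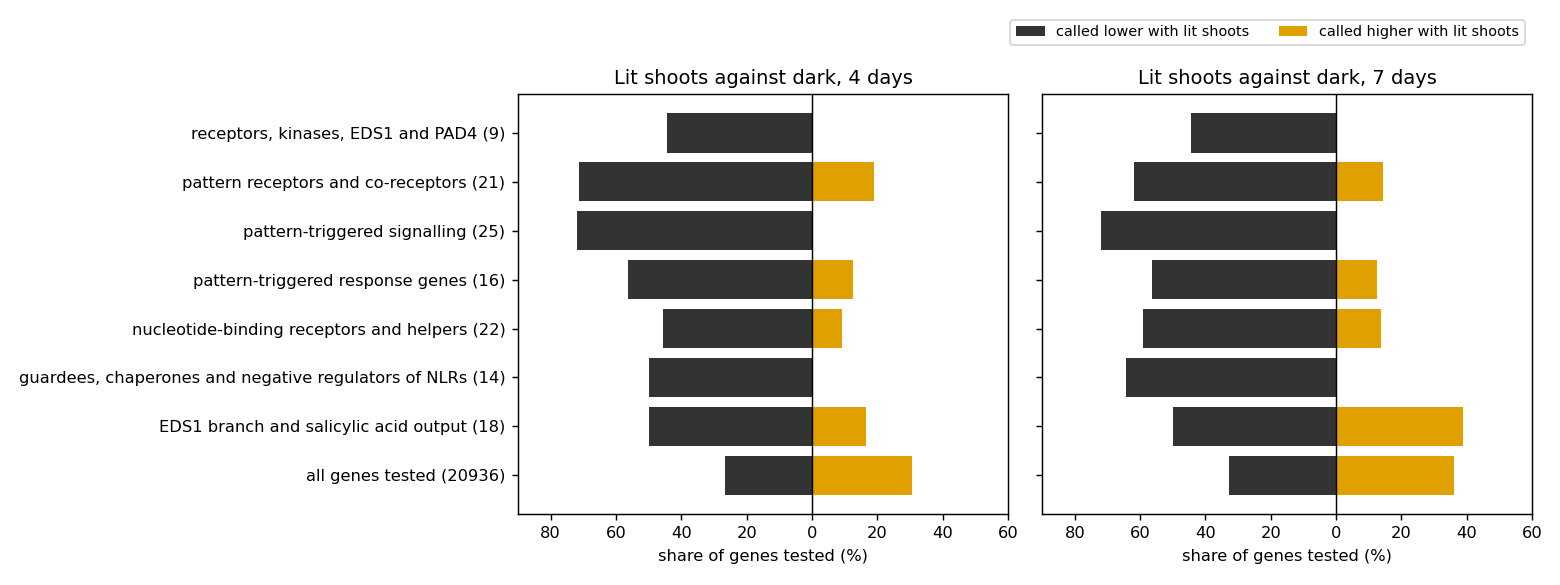
Share of tested genes (%) called lower (black, left of 0) and higher (yellow, right of 0) with lit shoots at 4 days (left) and 7 days (right), for the receptors, kinases, EDS1 and PAD4, for 6 lists and for all genes tested; the number tested is in brackets. The signalling list had 18 of 25 genes lower and none higher at each age, while over all genes 26.6% and 32.8% were lower.

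Other nucleotide-binding receptors and their helpers, without RPS2, RPM1 and RPS4, were lower for 10 of 22 tested genes and higher for 2 at 4 days. At 7 days 13 were lower and 3 higher (medians -0.27 and -0.72). Scaling to library totals called 5 higher at 4 days. Of all tested genes, 57.1% were called in either direction at 4 days (26.6% lower) and 69.0% at 7 days (32.8% lower). ZAR1 fell from 119 ± 17 to 47.7 ± 6.4 CPM and SUMM2 from 20 ± 0.91 to 7.44 ± 0.014 CPM at 4 days. RPP13 fell from 12.4 ± 1.3 to 4.21 ± 0.59 CPM at 7 days, while at 4 days it was at 5.68 and 5.16 CPM (log2 change -0.14, edgeR adjusted p = 0.61; interaction -1.42, adjusted p = 0.019). Its interaction was lost without dark 4-day replicate 2 (0.059), dark 7-day replicate 1 (0.077) or lit-shoot 4-day replicate 1 (0.086). The helpers ADR1-L1 and ADR1-L2, which act with EDS1 and PAD4 and were chosen after their values were seen, fell from 339 ± 13 to 147 ± 14 CPM and, for ADR1-L2, from 169 ± 2 to 89.1 ± 6.6 CPM at 4 days. ADR1, a relative of both, is also named after its values were seen and went the other way. It was not called at 4 days (log2 change 0.26, edgeR adjusted p = 0.17). At 7 days it was called higher, from 15.8 ± 1.4 to 23 ± 2 CPM (0.54, adjusted p = 0.011). RPP4, a receptor for a downy mildew, had no count in dark roots at 4 days and 4.36 ± 1.7 CPM in lit-shoot roots, which is at least 69.3-fold higher against a floor of 3 counts over the dark group. At 7 days it rose from 0.11 ± 0.16 to 2.56 ± 0.51 CPM. RPP8 rose from 0.252 ± 0.011 to 3.99 ± 1.6 CPM at 4 days, while at 7 days it was at 0.799 and 1 CPM (log2 change 0.35, edgeR adjusted p = 0.58; interaction -3.62, adjusted p = 0.022). That interaction was lost without either dark 4-day library (0.059 and 0.062), dark 7-day replicate 1 (0.089) or lit-shoot 4-day replicate 1 (0.09). RPP4 is 92.5% identical to AT4G16920 over 65.4% of its length and RPP8 85.5% to AT5G35450 over 81.7%, so the loci these reads came from are uncertain. AT3G46520 covers 33.0% of the RPP13 exon length on the opposite strand. Without the strand used in counting, reads in that overlap cannot be told apart. The locus AT1G56540 rose from 1.92 ± 0.16 to 3.36 ± 0.53 CPM at 7 days (adjusted p = 0.016), a call lost without replicate 2 of either group (0.081 and 0.11). At 4 days AT1G56540 was at 4.43 and 3.79 CPM in dark and lit-shoot roots (log2 change -0.23, edgeR adjusted p = 0.43). Between the ages it fell in dark roots (-1.21, adjusted p = 0.0076) and was not called with lit shoots (-0.17, adjusted p = 0.73). RPS6 was not called, at log2 fold changes of 0.02 and -0.01.

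Proteins that RPS2, RPM1 and related receptors guard, with their chaperones and negative regulators, were lower for 7 of 14 genes at 4 days and 9 at 7 days, and higher for none (medians -0.65 and -0.85). Shares over all tested genes were 26.6% lower and 30.5% higher at 4 days, and 32.8% lower and 36.2% higher at 7 days. At an unadjusted p below 0.05, edgeR gave 8 and 10 of the 14 lower and 0 higher, and DESeq2 also called 0 higher. Scaling to library totals called 1 higher at 4 days, as did leaving out the dark 4-day library of replicate 1. RIN4, the protein that RPS2 and RPM1 guard, and NDR1, which RPS2 needs, were chosen after their values were seen. RIN4 fell from 55.7 ± 1 to 31.1 ± 0.49 CPM at 4 days (log2 change -0.84 ± 0.09, edgeR adjusted p = 0.00016) and from 52.1 ± 1.4 to 29.2 ± 1.1 CPM at 7 days (-0.83 ± 0.09, adjusted p = 7e-05). NDR1 fell from 10 ± 1.3 to 5.89 ± 0.56 CPM at 4 days (adjusted p = 0.013) and from 8.29 ± 0.61 to 3.48 ± 0.79 CPM at 7 days (adjusted p = 0.00082). NDR1 is 87.3% identical to AT3G20590 over 64.5% of its length. Its 4-day call was lost with library totals alone (0.051) and without replicate 1 of the dark (0.058) or lit-shoot (0.086) group. RIPK, a kinase that phosphorylates RIN4, fell from 324 ± 12 to 83.9 ± 18 CPM at 4 days and from 296 ± 20 to 51.5 ± 7 CPM at 7 days. SGT1B, a more abundant relative of SGT1A named after its values were seen, was not called at either age. In dark and lit roots it was at 160 ± 5.8 and 142 ± 8.5 CPM at 4 days (edgeR adjusted p = 0.18). At 7 days it was at 143 ± 3.7 and 128 ± 10 CPM (adjusted p = 0.2). The co-chaperone SGT1A fell from 41.4 ± 24 to 15.1 ± 0.61 CPM at 4 days (adjusted p = 0.012), a call lost without either lit-shoot library (0.061 and 0.056) and when only the groups compared were fitted (0.088). HSP90.1 fell from 446 ± 78 to 127 ± 28 CPM at 7 days (adjusted p = 0.049), and this call was lost in 9 of the alternatives (0.053 to 0.25). HSP90.2 was not called, at 0.30 and 0.23; the 4-day value was 1.16 and called without the dark library of replicate 1 (adjusted p = 0.0046) and -0.35 without replicate 2 (0.21).

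In the EDS1 branch and the salicylic acid output 9 of 18 tested genes were lower with lit shoots and 3 higher at 4 days, and 9 were lower and 7 higher at 7 days (medians -0.78 and -0.58). Over all tested genes 26.6% were lower and 30.5% higher at 4 days and 32.8% lower and 36.2% higher at 7 days, so the share higher at 7 days was near that of all genes. The 7 became 3 without the dark 7-day library of replicate 1. GRX480, a glutaredoxin induced by salicylic acid, fell from 40.7 ± 12 to 3.72 ± 0.017 CPM at 4 days and from 29.2 ± 8.1 to 2.06 ± 0.44 CPM at 7 days. SARD1, a transcription factor that activates ICS1, fell from 2.83 ± 0.15 to 0.358 ± 0.27 CPM at 4 days and from 1.95 ± 0.11 to 0.303 ± 0.087 CPM at 7 days. ICS1, the isochorismate synthase of salicylic acid synthesis, rose from 1.32 ± 0.83 to 6.03 ± 0.37 CPM at 4 days (log2 change 2.18 ± 0.38, edgeR adjusted p = 0.0014). EDS5, which exports the precursor from plastids, rose from 8.13 ± 0.36 to 36.4 ± 2 CPM at 4 days and from 1.91 ± 1.5 to 40.8 ± 5.7 CPM at 7 days. ALD1, an aminotransferase of pipecolic acid synthesis, rose from 0.692 ± 0.093 to 14.8 ± 3.5 CPM at 7 days (4.41 ± 0.57, adjusted p = 0.00031). CBP60G, a relative of SARD1, was not called at 4 days (-0.89, edgeR adjusted p = 0.13), but was called lower with DESeq2 (0.019), with no filter (6.6e-08), with only the groups compared (0.0026) and without either dark 7-day library (0.0023 and 0.0025). The 7-day value was not called (-0.36, adjusted p = 0.48), but was called lower with no filter (0.04), and without the dark library of replicate 1 it was at -0.93 (0.0047) and without replicate 2 at 0.53 (0.058). The marker genes PR2 and PR5 had no count in any library and PR1 had 1 count in all.

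The interaction was called higher for 3 of the 18 genes, beside 9.03% of all tested genes in that direction and 14.6% in either. These were ALD1, EDS5 and WRKY54, which fell in dark roots between 4 and 7 days, and both contrasts share the dark libraries. ALD1 went from 14.8 to 0.692 CPM in dark roots, beside 15.1 and 14.8 CPM with lit shoots (interaction edgeR adjusted p = 0.011). WRKY54 went from 6.92 to 2.22 CPM in dark roots, beside 16.8 and 14 CPM with lit shoots (adjusted p = 0.013). The EDS5 interaction (adjusted p = 0.03) was lost on leaving out any 1 of 6 libraries (0.059 to 0.11), and that of WRKY54 without either lit-shoot 4-day library (0.06 and 0.061). These values stand beside PAD4, whose interaction was -0.00 (95% interval -0.82 to 0.81), and EDS1, whose interaction was 0.06 (-0.27 to 0.38).

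**Figure D4:**
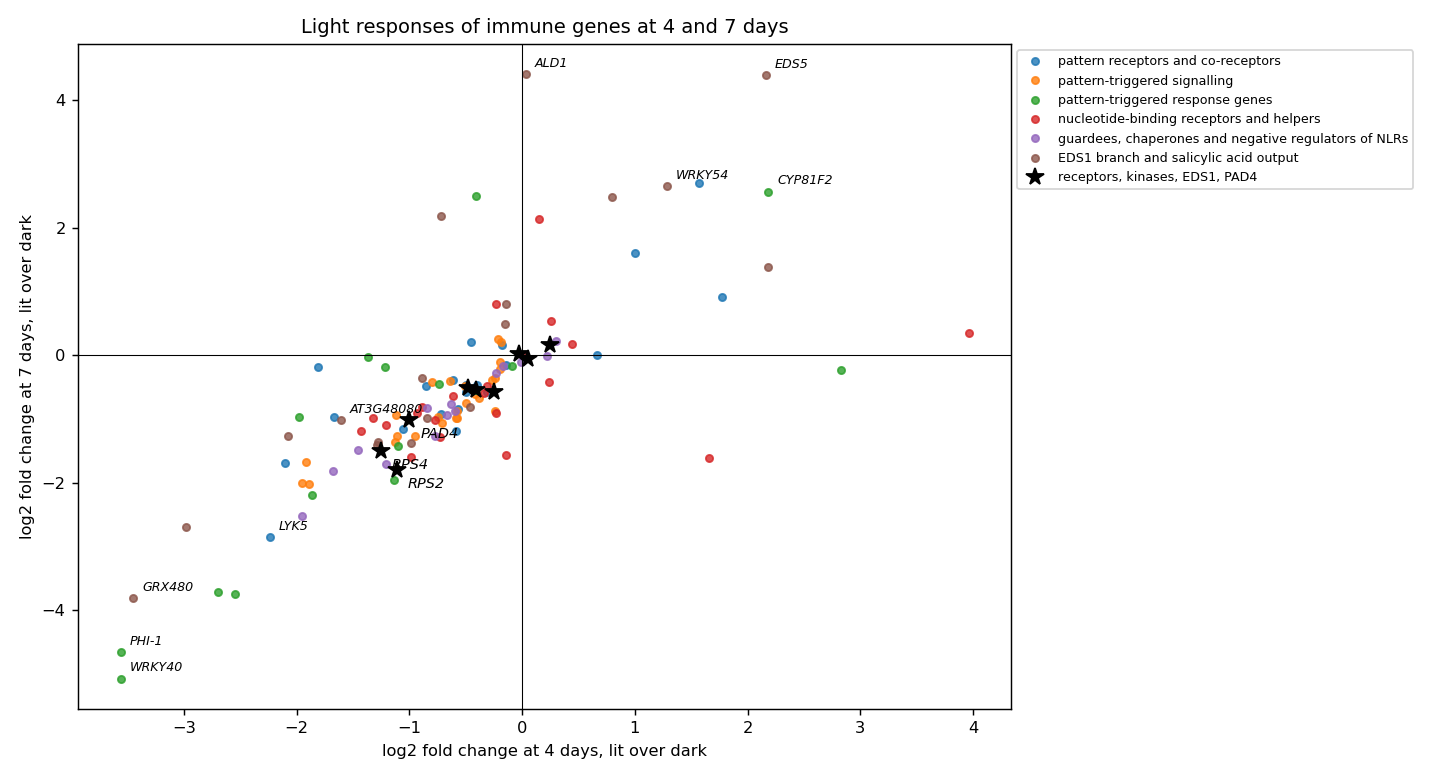
Log2 fold change of lit shoots over dark at 4 days (horizontal) and 7 days (vertical) for the tested genes of 6 lists (dots) and for the receptors, kinases, EDS1 and PAD4 (stars). RPP4, at fitted values of 9.91 and 4.43, is left out. Its 4-day value rests on 0 counts in the dark group, so only a bound of at least 69.3-fold is given in the text. WRKY40 (-3.56 and -5.07) and PHI-1 (-3.56 and -4.66) lie at the lower left, EDS5 (2.16 and 4.40) at the upper right, and RPS2, RPS4 and PAD4 between the lower left and the centre.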

How the data were processed

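Counts per locus in 8 root libraries were deposited by the authors as whole numbers, not normalized, in a single table. Per the labels, total RNA was depleted of ribosomal RNA. Reads were handled with TopHat2, Subread, CASAVA 1.8.2, Trim Galore and FastQC against TAIR10, per the submitters' processing notes. The sources used here give no strand or multiple-match setting, so overlapping loci and near-identical copies can share reads. For example, a locus on the opposite strand covers 29.6% of the exon length of LYM1, 19.5% of AT3G48080 and 18.4% of SARD1. HSP90.2 is 92.9% identical to AT5G56010 over 76.9% of its length. Organelle loci took 4.15% to 11.4% of the counts, and TMM factors ran from 0.912 to 1.09.

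The function filterByExpr (edgeR 4.0.16, R 4.3.3; minimum count 10, total 15) left 20936 genes. All 4 groups entered 1 quasi-likelihood fit (glmQLFit, robust; 4 residual degrees of freedom; biological coefficient of variation 14.9%). Comparisons were lit against dark at each age, 7 against 4 days within each condition, and their interaction. Calls were made below an adjusted p of 0.05 (Benjamini-Hochberg, all tested genes). The fit was checked on simulated counts. Far fewer genes were changed there than were called with light here, so that check does not cover scaling when many genes change. DESeq2 1.42.0, other scalings and filters, left-out libraries and a replicate block were alternatives. CPM per kb used TAIR10.1 exon lengths, which 20756 of the tested genes had.

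The 10 genes and the lists were chosen with earlier results of these data known. In each list the text names, per light comparison, the 2 largest called rises and falls (average log2 CPM of at least 0, libraries apart) and the most abundant gene not called, and other genes only where stated; 1 gene that this rule picks is not reported here. Replicates are independent biological samples per the labels, and no pair agreed within sampling noise (chi-square over degrees of freedom 11.9 to 66.6). Sequences are from the RefSeq genome, and windows overlapping transcribed neighbours were not printed except for RPS2.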

Additional observations from a re-analysis of the deposited data

Results flagged for a closer look

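RPS2 was flagged because its light difference was not the same at both ages, the only such call among the 9. That is 11.1% of the 9, beside 14.6% of all tested genes, so such a call was not particular to these genes. RPS2 was 2.15-fold lower with lit shoots at 4 days and 3.48-fold lower at 7 days. The difference between these effects was -0.69 ± 0.15 on the log2 scale (edgeR adjusted p = 0.02), with 2 libraries per group. Between the ages RPS2 had log2 fold changes of 0.31 in dark roots and -0.38 with lit shoots, neither of which passed the test alone. The interaction kept its sign in all alternatives run, and 4 of the 8 single-library omissions took its adjusted p past 0.05.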

How the results depend on the processing

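With 2 libraries per group, 4 residual degrees of freedom limit the precision, and FLS2 was below the depth at which a difference could be detected. Over 711 values of the 9 tested genes under the alternatives, 662 kept their direction and their side of the threshold, 10 became called, 10 lost their call and 29 changed sign, none of those 29 being called. Of 1130 values of named list and partner genes, alternatives chosen after seeing the data, 1057 kept both, 22 became called, 37 lost their call and 14 changed sign. The causes were not tested. ADR1 and SGT1B were not among the named genes of that count.

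Leaving out 1 library in turn, genes called with light ran from 8519 to 12120 at 4 days (11944 with all) and from 12551 to 14580 at 7 days (14454), and the called among the 9 from 3 to 4 and from 3 to 5. For age in dark roots it gave 3487 to 6993 (6624) and 0 to 2 of the 9, with 3910 without the dark 4-day library 2 and 3487 without the dark 7-day library 1. For age with lit shoots it gave 0 to 1111 (886) and 0 to 1 of the 9, with 0 and 108 without the lit 4-day libraries 1 and 2 and 354 without the lit 7-day library 1. The interaction gave 832 to 2918 (3057) and 0 to 1 of the 9, with 1877, 1573, 832 and 1107 without dark 4-day library 2, dark 7-day library 1 and lit 4-day libraries 1 and 2.

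For age with lit shoots DESeq2 called 1704 genes and no filter 3056, with 1 of the 9 under no filter. For the interaction no filter called 4964. For age in dark roots library totals and the replicate block each called 2 of the 9, RPS2 being added (block adjusted p = 0.038). Same-numbered libraries deviated with correlations of 0.00992 to 0.0872 and were not treated as pairs. Whether they shared a batch cannot be told from these values. The block gave 11887, 14377, 6627, 965 and 3065 genes over the 5 comparisons and changed no other call among the 9. Library totals moved the median of all genes to 0.26 at 4 days and 0.23 at 7 days, and the share of calls that were higher from 53.5% to 66.2% at 4 days. Removing organelle loci moved that share of the interaction from 61.8% to 71.2%. Fitting only the groups compared was not run for the interaction, which uses all groups.

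Sign changes with library totals were EDS1 0.17 at 4 days, CERK1 0.11 at 7 days, BAK1 0.03 with age in dark roots, IOS1 0.02 and MPK4 0.01 at 4 days and RPS6 0.15 at 7 days. With the 1 CPM filter they were CERK1 -0.02 and RPS6 -0.06 at 4 days and the RPM1 interaction 0.03, and without organelle loci CERK1 -0.01, RPS6 -0.05 and the RPM1 interaction 0.03. Fitting only the groups compared gave RPS6 -0.03 at 4 days. With 1 library left out, the values that took both signs ran, at 4 days, from -0.05 to 0.10 for CERK1, -0.19 to 0.08 for RPS6 and -0.35 to 1.16 for HSP90.2. At 7 days they ran from -0.15 to 0.04 for CERK1, -0.05 to 0.10 for EDS1, -1.56 to 0.18 for MYB51, -0.25 to 0.20 for RPS6 and -0.93 to 0.53 for CBP60G. For age in dark roots they ran from -0.11 to 0.02 for BAK1, -0.19 to 0.23 for RPM1 and -0.63 to 0.08 for PAD4, and with lit shoots from -0.18 to 0.27 for RPM1, -0.16 to 0.02 for RPS4 and -0.14 to 0.01 for EDS1. Interactions ran from -0.22 to 0.11 for BIK1, -0.23 to 0.26 for RPM1 and -0.02 to 0.16 for EDS1.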
